A study of Mus musculus with 12 samples.

Results

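Transcripts known to the array only by a GenBank accession beginning with AK were followed in mature mouse oocytes with and without Dicer. A gene probe was taken when its identifier began with AK and digits and its signal-over-noise score, the scanner's measure of how far a spot stands above its own noise, was 3 or more on at least 6 of 12 arrays. Of the 4181 AK probes among 33012 gene probes, 261 met this rule, and each stands for a different AK identifier. These members were chosen by the score without regard to genotype, so a transcript seen in one group alone could enter, and such a transcript had to differ between the groups. Counts over the members are thus descriptions, set beside the same counts over the 6088 probes of any identifier that met the same rule, called the tested probes.

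The samples were 6 arrays titled Dicer Knock-Out and 6 titled Dicer Wild-type. All were labelled as mature mouse oocytes, described as single-cell material, and were hybridized with amplified, digoxigenin-labelled cRNA made from total RNA. The labels name no strain, age, deleted allele or Cre driver, and no number of oocytes or females behind an array. What limits the knockout as a model is thus unknown here. The p-values cover the spread from array to array, which may be technical, and the number of arrays limits every estimate. Knockout arrays carry the lower array numbers in the titles, so array order and genotype cannot be told apart. If an array pools oocytes, fewer oocytes with a transcript and less of it per oocyte cannot be told apart either.

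AK accessions in the mouse come mostly from large-scale sequencing of full-length cDNA clones, made to catalogue transcripts from many tissues. Many such clones match no well-studied protein, and some have no long open reading frame. Dicer, an RNase III enzyme, cuts the precursors of microRNAs and of endogenous small interfering RNAs, both of which act on transcripts. A mature oocyte makes almost no new RNA, so its transcripts are maternal stores laid down during growth and lost by decay. Of the 4181 AK identifiers, 0 were paired with a symbol in the RefSeq gene table of assembly GRCm38.p6, so members go by their identifiers and no role is given to any of them.

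The arrays as a whole set the frame for these values. The median unscaled signal of the tested probes was 2736 to 6732 intensity units on knockout arrays and 1069 to 2580 on wild-type arrays, so knockout arrays were the brighter ones. Dicer1 was not among the probes paired with a symbol, so the genotype labels were not checked against its level. Of 20 oocyte markers, 4 had a named probe: Obox1, Obox2 and Obox3, homeobox genes of the oocyte, were above background on all 12 arrays, and Mos, the kinase that holds eggs in metaphase, on every array but 1 of the wild type. Of the markers of other cells, the blood gene Hba-a1 was above background on 1 of 6 arrays of each group and Sfrp4, from the cumulus and granulosa list, on 1 knockout array and 0 wild-type ones. The theca and stroma list had 0 named probes.

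Few AK transcripts were seen on every array. Of the 4181 AK probes, 2071 (49.5%) were above background on 0 arrays and 1179 (28.2%) on 1 array, while 117 (2.80%) were above background on all 12. The members made up 6.24% of AK probes. The same rule was met by 20.4% of the 27930 probes with Celera gene identifiers, 16.8% of the 517 with RefSeq accessions and 11.6% of the 337 with BC accessions. Among members, 117 were above background on all 12 arrays, 71 on 6 of 6 knockout arrays and fewer than 6 wild-type arrays, 13 on 6 of 6 wild-type arrays and fewer than 6 knockout arrays, and 60 on fewer than 6 of both. These are 44.8%, 27.2%, 4.98% and 23.0% of the members, beside 48.9%, 26.1%, 3.04% and 21.98% of all tested probes. More probes thus passed through the knockout arrays than through the wild-type arrays, among members and tested probes alike.

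**Figure D1:**
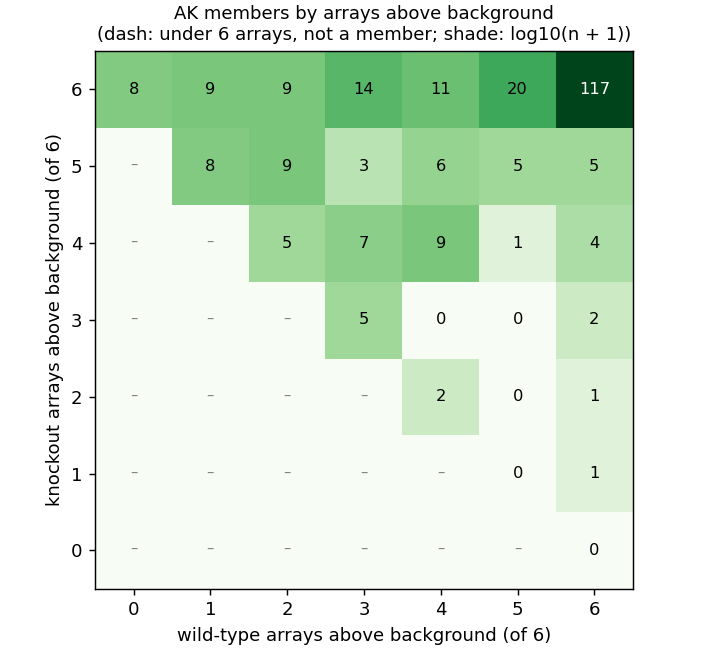
Number of AK members at each combination of knockout arrays (vertical axis, of 6) and wild-type arrays (horizontal axis, of 6) above background; darker cells hold more members. The largest cell is the 117 members above background on all 12 arrays, and 8 members were above background on 6 knockout and 0 wild-type arrays.

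At the edge of the rule, 28 members were above background on exactly 6 arrays, and their sixth-highest score ran from 3.02 to 35.8 with a median of 3.70. Of these 28, 21 had more knockout than wild-type arrays above background and 2 had fewer. Just outside, 42 AK probes were above background on exactly 5 arrays, and their sixth-highest score had a median of 2.58 and reached at most 2.97. Of these 42, 33 had more knockout arrays and 9 more wild-type arrays above background. These edge counts were not taken over probes of other identifiers, so the lean to knockout arrays is not shown to be particular to AK probes.

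More AK probes were above background on knockout than on wild-type arrays. The count per array was 454 at the lowest, 523 at the median and 601 at the highest in the knockout group, against 353, 393.5 and 447 in the wild-type group. The groups did not overlap, but knockout replicate 2 with 454 stood close to wild-type replicate 5 with 447. As a share of all probes above background on an array, AK probes took 5.93% to 6.60% on knockout arrays and 6.18% to 6.66% on wild-type arrays, ranges that overlapped. The larger count of AK probes on knockout arrays thus went with a larger count of all probes, 7361 to 9598 against 5707 to 7102.

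Relative to their own array, the members stood lower in knockout oocytes. The median log2 signal of the members minus that of the tested probes of the same array was -0.94 at the lowest, -0.79 at the median and -0.60 at the highest on knockout arrays. On wild-type arrays it was -0.36, -0.25 and -0.13. The groups did not overlap. This difference within an array is the same under any scaling that multiplies all its signals by 1 factor. It compares AK probes with the other probes of an array and does not show which of them changed. The dimmest knockout array, replicate 2 (median tested signal 2736), had the smallest knockout gap, -0.60. The brightest wild-type array, replicate 2 (2580), had the largest wild-type gap, -0.36, but the next brightest, replicate 1 (1652), had -0.13. Whether array brightness shapes this difference was not tested. Over the 117 members and the 2979 tested probes above background on all 12 arrays, where no probe entered through 1 group, it was -1.12 to -0.57 on knockout arrays and -0.38 to -0.07 on wild-type arrays, again without overlap. That set also needs signal on the dimmer wild-type arrays, so it drops more probes that were weak in the wild type.

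**Figure D2:**
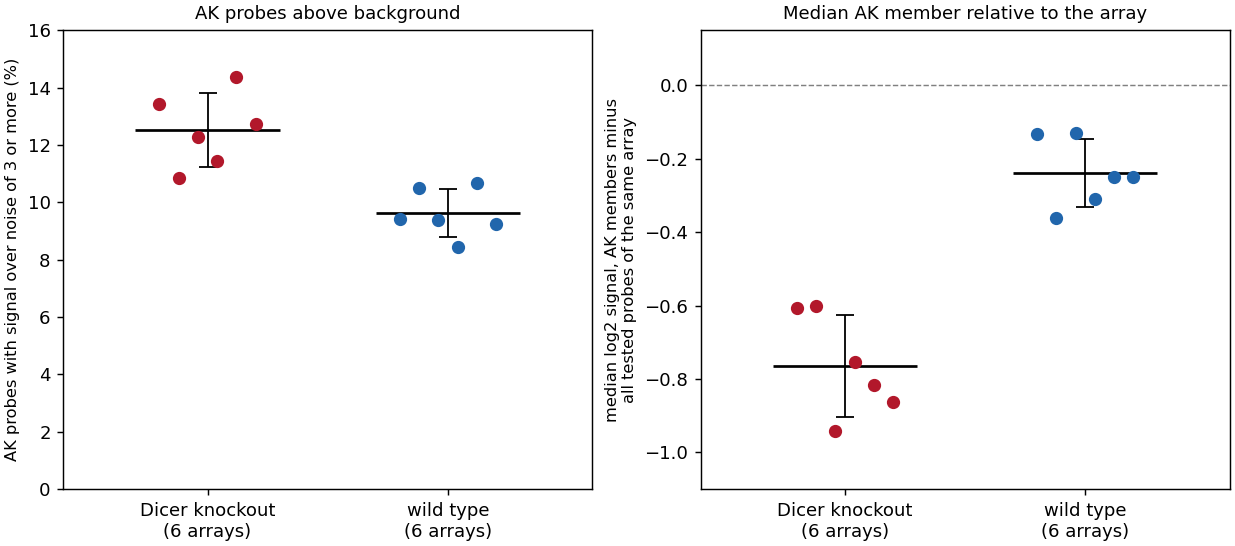
Left, percentage of the 4181 AK probes above background on each array; right, median log2 signal of the AK members minus that of all tested probes of the same array. Points are arrays, the horizontal bar is the mean and the whisker the SD (n = 6 per group); the knockout arrays lie higher on the left and lower on the right, without overlap in either panel.

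After quantile normalization, which gives every array the same distribution of signals, 56 members rose and 86 fell in knockout oocytes at an adjusted p under 0.05, and 119 did not pass (limma, two-sided, Benjamini-Hochberg adjustment over the 6088 tested probes). Among all tested probes 50.5% were called, 28.1% of them as rises and 22.4% as falls out of the 6088, against 54.4%, 21.5% and 33% of the members. The share of members called was thus near that of all tested probes, while the balance of rises and falls was the other way round. Most tested probes, 5696 of the 6088, had Celera gene identifiers, of which 28.5% rose and 21.9% fell. The 87 with RefSeq accessions had 24.1% rises and 25.3% falls, and the 39 with BC accessions 23.1% and 28.2%. In these small classes falls and rises were nearly level for RefSeq, 22 against 21 probes, and falls were slightly more frequent for BC, 11 against 9. The median log2 fold change, knockout over wild type, was -0.34 over the members and 0.18 over all tested probes. By class it was 0.21 for Celera, 0.03 for RefSeq and -0.25 for BC probes. The middle 50% of the members lay between -1.14 and 0.75 on that scale, and the extremes were -4.93 and 5.52. By size, 52 members rose at least 2-fold and 70 fell at least 2-fold, where 24.8% and 17.1% of the tested probes did. For 79 members the 6 arrays of one group all lay beyond the 6 of the other, 28 of them higher and 51 lower in the knockout, where 15.2% and 13.1% of the tested probes did so.

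How many members rose or fell depended on how the arrays were scaled to each other. With arrays centred on the median tested probe, 44 members rose and 112 fell, against 22.9% and 29.5% of the tested probes. Quantile normalization over the tested probes alone gave 46 and 110, against 23.5% and 28.7%, and cyclic loess gave 46 and 107, against 24.8% and 26.7%. The scanner software's own normalized signal gave 61 and 35, against 34.2% and 8.39%. Scaling to the hybridization control spots gave 115 and 10, against 58.7% and 2.23%, and scaling to the in vitro transcription control spots gave 150 and 3, against 68.7% and 1.05%. The authors' deposited table gave 127 and 11, against 63.1% and 2.4%, and the unscaled signal 114 and 6, against 58.1% and 1.76%. The median log2 fold change of all tested probes, 0.18 after quantile normalization, was 1.33 with hybridization controls, 1.69 with in vitro transcription controls and 1.39 both in the deposited table and unscaled, so these keep the brightness difference between the groups. Under each of the 9 scalings the median of the members lay below that of the tested probes, by 0.50 to 0.58 on the log2 scale. Median centring, both kinds of control spots and no scaling differ only by 1 factor per array, so their like gaps were fixed in advance. The lower median of the members was also seen with quantile normalization and cyclic loess, which do more than apply 1 factor. The number of rises and falls depended on the scaling.

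**Figure D3:**
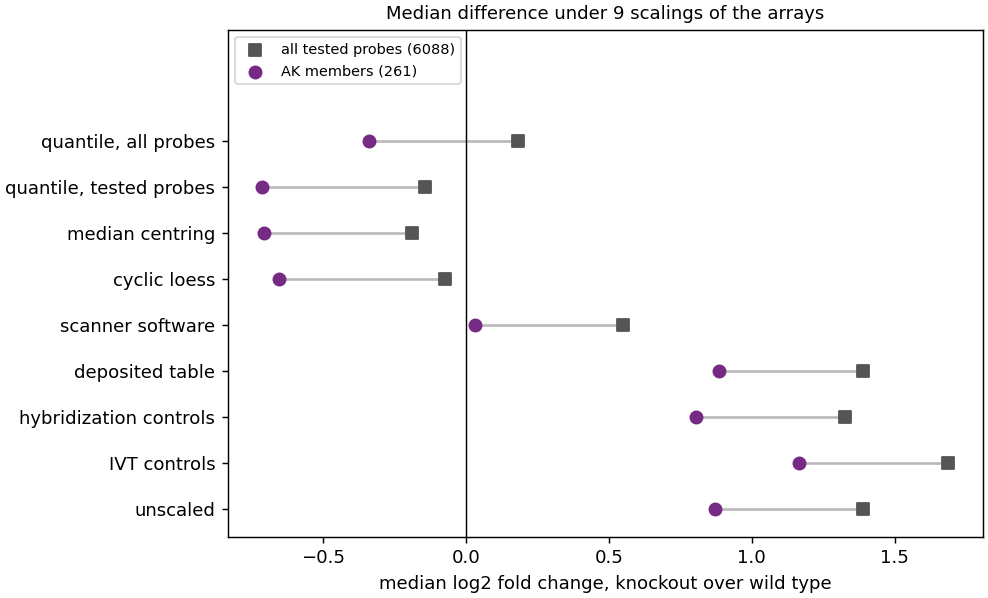
Median log2 fold change, knockout over wild type (horizontal axis), of the 261 AK members (circles) and of the 6088 tested probes (squares) under 9 scalings of the arrays (vertical axis; IVT, in vitro transcription). Both medians move from below 0 to above 1 with the scaling, and the circle lies left of the square in each row.

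The 117 members above background on all 12 arrays held most of the falls. This set leaves out 71 members that missed only wild-type arrays and 13 that missed only knockout arrays, which favours falls within it. Of the 117, 12 rose, 68 fell and 37 did not pass after quantile normalization, with a median log2 fold change of -0.91. Of the 2979 tested probes of that kind, 58.9% were called, 22% of the 2979 as rises and 37% as falls, with a median of -0.33. At least 2-fold, 8 members rose and 53 fell, where 15.5% and 27% of the 2979 probes did. The groups did not overlap for 52 members, 7 that stood higher and 45 that stood lower in the knockout, where 37.6% of the 2979 probes did not, 13.5% higher and 24.1% lower. Fitted on these 2979 probes alone, 12 members rose and 70 fell, against 23.7% and 40.5%. In 4 equal brightness classes of the 2979 probes, from the dimmest to the brightest, the members had medians of -0.90, -0.56, -1.18 and -0.98 and the probes as a whole -0.51, -0.27, -0.25 and -0.24. The lower median of the members was thus present in each of the classes, which held 44, 23, 24 and 26 members.

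The 144 members above background on 6 to 11 arrays held more rises than falls, 44 against 18, where 34% and 8.49% of the 3109 tested probes of that kind rose and fell. Their median log2 fold change was 0.33, beside 0.69 over those probes. Within them, the 71 members above background on all knockout arrays but not all wild-type arrays gave 35 rises and 2 falls, where 57.1% and 1.32% of such tested probes rose and fell. The rule favours rises there by construction. Requiring 3 of 6 arrays above background in each group left 209 members, of which 25 rose and 83 fell, against 21.4% and 27.3% of the 4849 probes then tested.

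**Figure D4:**
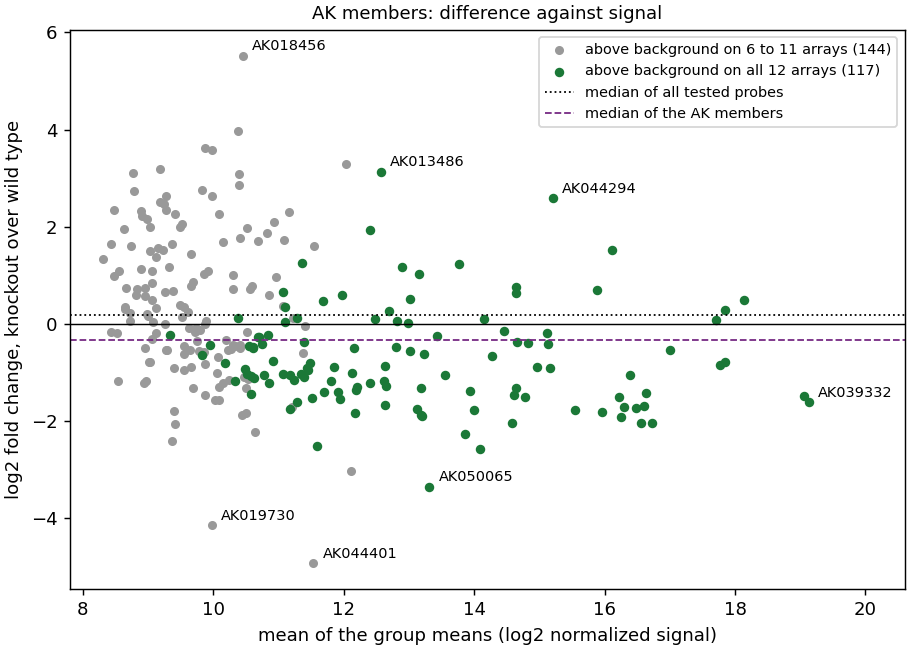
Log2 fold change, knockout over wild type (vertical axis), of each AK member against the mean of its 2 group means (horizontal axis, log2 quantile-normalized signal), with members above background on all 12 arrays in green and the others in grey. The dotted line is the median of all tested probes (0.18) and the dashed line that of the members (-0.34); rises prevail among the dim grey points and falls among the green ones.

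Among the members above background on every array, AK050065 fell the most. Its log2 normalized signal was 11.36 at the lowest, 11.69 at the median and 11.83 at the highest on knockout arrays, against 14.71, 14.86 and 15.49 on wild-type arrays. The gap between the groups was more than 3 times the range within either. The fall was 10.2-fold (log2 fold change -3.35 ± 0.20 SE, n = 6 each, limma adjusted p = 9.52e-08). It was also present before any scaling, since the signal of AK050065 ran from 2974 to 8301 intensity units on the brighter knockout arrays and from 14458 to 27293 on the wild-type arrays. AK050065 was called lower under each of the 9 scalings, with log2 fold changes of -3.40 to -1.52.

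The next falls in that group were those of AK054275, AK044288, AK083115, AK087211 and AK008216. AK054275 had log2 signals of 12.10, 12.56 and 13.79 (lowest, median and highest) on knockout arrays and 14.79, 15.39 and 15.84 on wild-type arrays, a fall of 2.57 ± 0.32 SE on the log2 scale (limma adjusted p = 3.88e-05). AK044288 had 9.80, 10.28 and 10.97 against 11.60, 13.07 and 13.19. Its fall was 5.70-fold (log2 fold change -2.51 ± 0.32 SE, limma adjusted p = 4.25e-05), and wild-type replicate 2 at 11.60 came nearest to the knockout arrays. For AK044288, too, the unscaled signals did not overlap, at 1184 to 2804 intensity units in the knockout and 3258 to 5523 in the wild type.

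AK083115 stood at 11.65, 12.73 and 13.59 on knockout arrays and 14.54, 14.97 and 15.58 on wild-type arrays (log2 fold change -2.28 ± 0.32 SE, limma adjusted p = 9.97e-05). AK087211 stood at 14.02, 15.92 and 16.32 against 17.04, 17.64 and 17.90, with a wide knockout spread (SD 0.93, n = 6) and a log2 fold change of -2.04 ± 0.39 SE (limma adjusted p = 0.000828). AK008216 stood at 15.32, 15.74 and 16.07 against 17.41, 17.76 and 18.23 (log2 fold change -2.04 ± 0.22 SE, limma adjusted p = 9.24e-06). No knockout array reached a wild-type one for any of these after quantile normalization, but the calls were not all kept under other scalings. AK044288 passed under 8 of 9 scalings, AK054275 and AK008216 under 7, and AK083115 and AK087211 under 5, with log2 fold changes below 0 in each of the 9. With no scaling between arrays, AK083115 ran from 3621 to 22304 intensity units in the knockout and from 11372 to 41068 in the wild type, so that its groups overlapped.

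The largest rise among members above background on every array was that of AK013486. Its log2 signal was 13.14 at the lowest, 14.17 at the median and 15.06 at the highest on knockout arrays, against 10.21, 10.79 and 12.58 on wild-type arrays. The groups were separate, with wild-type replicate 2 at 12.58 far above the other wild-type arrays, at 10.21 to 10.997. The rise was 8.74-fold (log2 fold change 3.13 ± 0.41 SE, limma adjusted p = 5.43e-05). The lowest score of AK013486 on a wild-type array was 3.09, close to the threshold of 3, so its wild-type values reach near the noise floor. AK044294 was tighter, at 15.91, 16.48 and 17.21 against 13.55, 13.93 and 14.27, a log2 fold change of 2.58 ± 0.24 SE (limma adjusted p = 3.63e-06). Unscaled, AK044294 gave 115601 to 285640 intensity units in the knockout and 5061 to 17508 in the wild type.

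The next rises named were smaller, and were the largest left among members of that kind whose groups did not overlap. Rises with overlapping groups were left out here, such as AK003758 (log2 fold change 1.94), AK042399 (1.26) and AK052311 (1.17). AK010031 stood at 16.39, 16.82 and 17.46 on knockout arrays and 14.88, 15.30 and 15.85 on wild-type arrays (log2 fold change 1.52 ± 0.24 SE, limma adjusted p = 0.000254). AK011534 stood at 13.71, 14.44 and 14.94 against 12.83, 13.12 and 13.54 (1.23 ± 0.24 SE, limma adjusted p = 0.000949). For both, the groups were separated by less than the range within a group. AK017677 stood at 13.44, 13.58 and 14.02 against 11.45, 12.86 and 13.33, a log2 fold change of 1.02 ± 0.32 SE (limma adjusted p = 0.0183). AK076502 stood at 14.73, 14.90 and 15.64 against 13.92, 14.26 and 14.55, at 0.75 ± 0.21 SE (limma adjusted p = 0.0108). All 6 rises, from AK013486 to AK076502, passed under each of the 9 scalings. The scalings that keep the brightness of the knockout arrays favour rises, so this does not make the rises firmer than the falls.

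**Figure D5:**
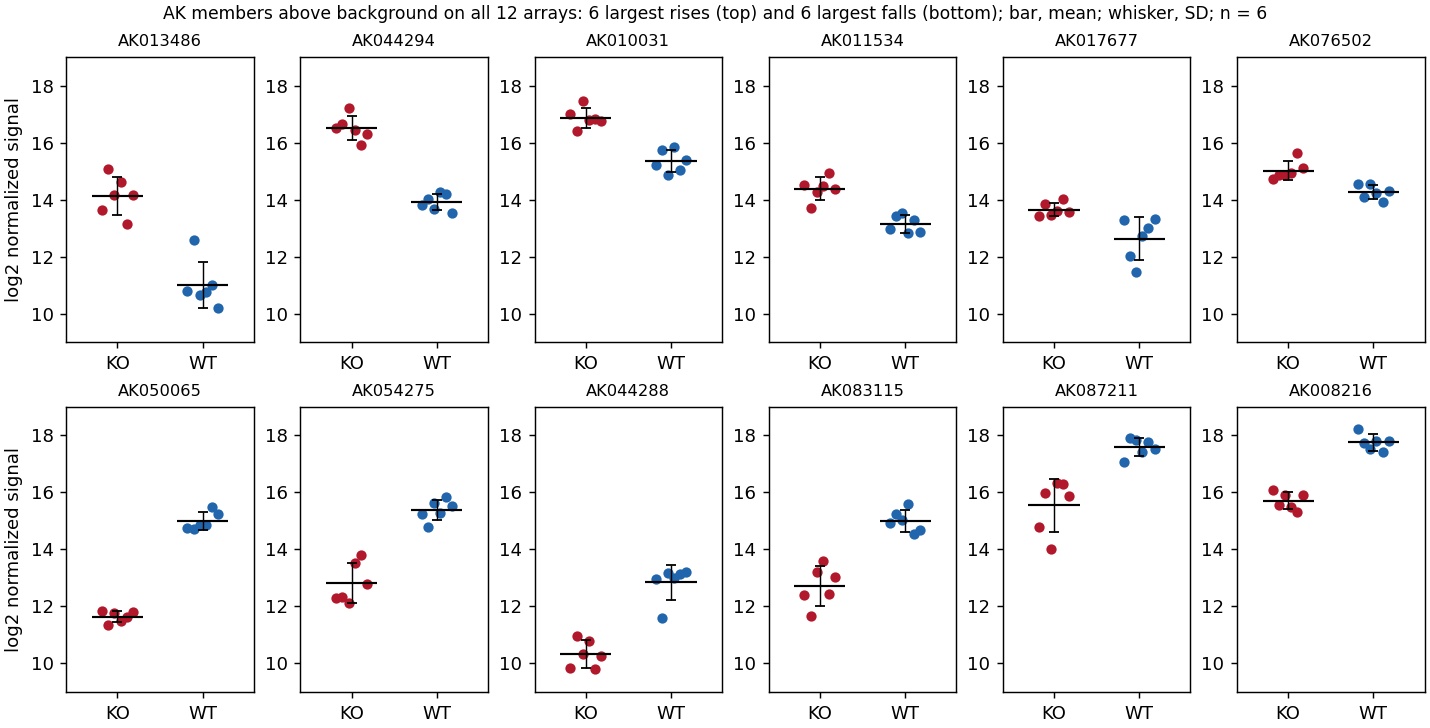
Log2 quantile-normalized signal (vertical axes) of the 6 largest rises (top row) and 6 largest falls (bottom row) among AK members above background on all 12 arrays whose groups did not overlap, with knockout (KO) and wild-type (WT) arrays as points, the mean as a bar and the SD as a whisker (n = 6 each). AK050065 shows the widest gap, 11.36 to 11.83 against 14.71 to 15.49, and AK076502 a narrow one, 14.73 to 15.64 against 13.92 to 14.55.

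For 8 members the signal was above background on every knockout array and on 0 wild-type arrays, and 0 members showed the reverse. The same held for 2.92% of the 6088 tested probes, beside 3.07% of the members. These 8 met the rule through the knockout arrays alone, so they had to be higher there and no test is given. AK018456 was the brightest of them relative to the wild type. Its log2 signal was 12.44, 13.43 and 13.74 (lowest, median and highest) on knockout arrays, with scores of 35.8 to 80.8, while its wild-type signals of 6.27 to 8.60 were not well above background, with scores of at most 2.51. AK018456 was at least 43-fold higher in the knockout, and at least 27.3-fold higher with median centring, the lowest of the bounds computed, which were those with quantile normalization, median centring, both kinds of control spots and no scaling. The bound sets the knockout mean against the lowest signal of any probe above background on each wild-type array, or the probe's own signal where that is higher. That floor is low, so the bound lies near the plain fold change, 45.9 for AK018456. It holds against this floor only, since the signal needed to clear background differs between probes.

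The other 4 named from this set were dimmer in the knockout. AK009215 ran from 9.84 to 11.96 on knockout arrays and was at least 8.95-fold higher (5.31-fold with median centring). AK012032 ran from 8.49 to 11.33 and was at least 6.49-fold higher (3.71-fold). AK087644 ran from 9.37 to 11.38 and was at least 5.37-fold higher (3.20-fold). AK018072 had the narrowest range, 9.17 to 10.03, and its bound was 5.08-fold (2.55-fold). After quantile normalization that bound equals the plain fold change, because its own wild-type signals, though not above background, exceeded the floor. The lowest score of AK012032 on a knockout array was 3.53, close to the threshold of 3, while that of AK009215 was 6.23.

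On the wild-type side, 13 members were above background on 6 of 6 wild-type arrays but on fewer than 6 knockout arrays. Of these 12 fell, where 72.4% of such tested probes fell, and their median log2 fold change was -1.83. The rule favours falls there by construction. AK044401 and AK019730 were here, singled out after their values were seen because they were called lower under each of the 9 scalings. They also had the lowest log2 fold changes of the 261. AK044401 stood at 7.99, 8.97 and 10.24 on knockout arrays, 3 of 6 of them above background, and at 13.08, 13.87 and 14.82 on wild-type arrays. Unscaled, its highest knockout signal was 1921 intensity units and its lowest wild-type signal 4309. AK019730 stood at 7.11, 7.45 and 9.38 on knockout arrays, 2 of 6 of them above background, and at 10.68, 12.18 and 12.96 on wild-type arrays. The log2 fold changes of AK044401 and AK019730, -4.93 and -4.14, rest on knockout values partly at the noise floor. Both met the rule through the wild-type arrays alone, so their calls are no support for a fall and no p-value is given. Before any scaling, the groups did not overlap for 3 members that stood lower in the knockout, AK050065, AK044288 and AK044401, and for 56 that stood higher, where 0.641% and 27.6% of the tested probes did so. Of the 117 members above background on every array, 9 were called higher and 1, AK050065, lower under each of the 9 scalings, where 19.7% and 1.11% of the 2979 tested probes were. A further 15 of the 117 were called lower under one scaling and higher under another, where 13.2% of the 2979 were. Over all 261 members these counts were 42, 3 and 19, against 22.1%, 1.05% and 7.34% of all tested probes. They include members that passed through 1 group, whose direction the rule favoured, with AK044401 and AK019730 among the 3.

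The 5 members with the highest mean signal were AK039332, AK014816, AK012728, AK008521 and AK047922. Signals of different probes do not measure relative abundance, so these are described one by one. AK039332 had log2 signals of 17.19, 18.71 and 18.88 on knockout arrays and 19.33, 20.03 and 20.23 on wild-type arrays, and fell by 1.61 ± 0.32 SE on the log2 scale (limma adjusted p = 0.00123). AK014816 had 17.07, 18.67 and 19.01 against 19.03, 19.92 and 20.08, so that the groups nearly met, and fell by 1.47 ± 0.34 SE (limma adjusted p = 0.00324). AK008521 had 17.07, 17.49 and 17.83 against 18.10, 18.23 and 18.40, and fell by 0.79 ± 0.20 SE (limma adjusted p = 0.00497).

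These 3 falls depended on the scaling: AK039332 and AK014816 passed under 5 of 9 scalings, and AK008521 under 4 of 9 with log2 fold changes from -1.23 to 0.64. AK012728 had 17.49, 18.48 and 18.92 against 17.41, 18.01 and 18.28, and its log2 fold change of 0.49 had a 95% interval of -0.10 to 1.08 (limma adjusted p = 0.154). AK047922 ran from 17.67 to 18.31 on knockout arrays (mean 17.99) and from 17.56 to 17.81 on wild-type arrays (mean 17.70), and its log2 fold change of 0.29 had an interval of -0.09 to 0.67 (limma adjusted p = 0.184). After quantile normalization the groups overlapped for both, and neither passed the test. AK012728 was called higher under 4 of 9 scalings (log2 fold changes of -0.02 to 1.86) and AK047922 under 5 (-0.14 to 1.73), whose unscaled groups did not overlap.

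For 1 member above background on all 12 arrays, AK012016, the 95% interval of the log2 fold change lay wholly within -0.5 to 0.5. It had 12.76, 12.90 and 13.52 on knockout arrays and 12.66, 12.93 and 13.39 on wild-type arrays, and stood at 0.02 with an interval of -0.44 to 0.48 (limma adjusted p = 0.959). Under the 9 scalings its log2 fold change ran from 0.01 to 1.90, and it was called in 4 of them. For the other members of that kind that did not pass, the interval reached beyond 0.5 on at least one side, so an equal level was not shown.

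The members varied among the arrays of a group much as the tested probes did. The median SD of log2 signal was 0.55 on knockout and 0.70 on wild-type arrays for the members, and 0.55 and 0.67 for the tested probes (n = 6 each). The members seen on every array had median SDs of 0.47 and 0.37. Among these, the widest spread on knockout arrays was that of AK041270, which ran from 9.42 on replicate 2 to 13.17 on replicate 6 (SD 1.30), against 12.37 to 14.24 on wild-type arrays. Its groups overlapped, and it fell by 1.83 ± 0.54 SE on the log2 scale (limma adjusted p = 0.0133). That call held under 4 of 9 scalings, with log2 fold changes of -1.90 to 0.0045. The lowest score of AK041270 on a knockout array was 3.15, close to the threshold of 3. AK051605 ran from 10.15 to 13.29 on knockout arrays (SD 1.18) and from 10.87 to 13.21 on wild-type arrays, with a log2 fold change of 0.59 ± 0.54 SE (limma adjusted p = 0.383), and was called higher under 4 of 9 scalings.

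On wild-type arrays the widest spreads among members above background on all 12 arrays were those of AK003758 and AK078885. AK003758 ran from 9.17 on replicate 2 to 12.45 on replicate 6 (SD 1.2), against 12.43 to 14.02 on knockout arrays. Its groups overlapped by wild-type replicate 6 and knockout replicate 2 alone, and it rose by 1.94 ± 0.51 SE (log2 scale, limma adjusted p = 0.00667). AK078885 ran from 10.58 to 13.58 (SD 1.095), against 10.09 to 11.82, with a log2 fold change of -1.17 ± 0.48 SE (limma adjusted p = 0.0591). The low values of AK041270 and AK051605 were on knockout replicate 2, and those of AK003758 and AK078885 on wild-type replicate 2. Taken across the 117 members seen on every array, pairs of knockout arrays correlated at 0.951 on average (lowest 0.890) and pairs of wild-type arrays at 0.966 (lowest 0.956), while pairs of unlike genotype averaged 0.871 (highest 0.913). These Pearson correlations of log2 signal run over genes and are given as a description, since genes are no independent replicates and the arrays also differ in brightness.

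The AK numbers on the array fall into 3 runs separated by gaps, a division made after the values were seen. The first, from AK002390 to AK021411, held 997 probes, of which 100 (10.03%) were members, the second, from AK027935 to AK054536, held 2085 with 95 members (4.56%), and the third, from AK075664 to AK090393, held 1099 with 66 members (6.01%). AK probes of the first run were thus seen more often than those of the later ones. In the same order 27, 21 and 8 members rose (27%, 22.1% and 12.1% of the members of each run) and 28, 33 and 25 fell (28%, 34.7% and 37.9%), beside 28.1% and 22.4% of all tested probes. The median log2 fold change was -0.07, -0.36 and -0.59. These are descriptions, and the differences between the runs were not tested.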

How the data were processed

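Per the file headers, 1-colour Mouse Genome Survey arrays (Applied Biosystems, version 1.0) were scanned and quantified by AB1700 software of version 1.1.1, all on 1 date, which leaves no scan batch to compare. Each deposited scanner file gives 2 linear intensity columns per spot, the signal and the software's scaling of it, besides the signal-over-noise score and other columns, of which the quality flag was used. The authors' deposited series table holds intensities too, and how it was scaled is not stated in the labels. Flags from 5000 up counted as missing, which removed 4 spots of the members. Signals of the 33012 gene probes were log2-transformed with no offset and quantile-normalized over the 12 arrays. Probes with a score of 3 or more on at least 6 arrays were compared by linear models with moderated variances (limma 3.58.1 under R 4.3.3). Two-sided p-values were adjusted over all 6088 by the Benjamini-Hochberg method, at a threshold of 0.05. The linear-model step alone was tested on simulated log2 signals, which covered neither the filter nor the normalization. Python 3.11.15 and matplotlib 3.10.9 made the plots.

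Genes named were, among members above background on all 12 arrays, the 6 largest rises and 6 largest falls without overlap between groups, up to 4 with an interval within 0.5 of 0 and the 2 widest spreads of each group; up to 5 above background on 6 arrays of one group and 0 of the other; and the 5 of highest mean signal. Members called lower under each of the 9 scalings were added after the values were seen. No identifier had several member probes. The members, lists and rules were chosen with earlier results of these data known. Replicate numbers follow sample order and pair nothing. Alternatives were other scalings, filters, an offset of 50, array weights and leaving out each array; the unscaled signal was added after seeing the data.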

Additional observations from a re-analysis of the deposited data

Results flagged for a closer look

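Of 64 sets of 6 array values examined, 58 of named members and 6 of summaries per array, 4 held a value standing far apart, and chance alone would give about 1 in 20 such sets, or 3.2. All 4 were on wild-type arrays. For AK044288, wild-type replicate 2 was low at 11.60 (log2 signal), with the remaining wild-type arrays at 12.96 to 13.19. For AK013486 the same array was high at 12.58, with the remaining ones at 10.21 to 10.997. For AK014816, wild-type replicate 1 was low at 19.03, with the rest at 19.79 to 20.08. For AK051605, wild-type replicate 4 was high at 13.21, with the rest at 10.87 to 11.71.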

How the results depend on the processing

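With quantile normalization 56 members rose and 86 fell (142 in all), of 3077 calls over all tested probes, and the members' median log2 fold change was -0.34. Leaving out single arrays gave 48 to 57 rises, 78 to 88 falls, 129 to 141 member calls, 2808 to 3213 calls over all probes and medians of -0.40 to -0.24. The median was -0.71 with quantile normalization over tested probes alone, -0.71 with median centring and -0.66 with cyclic loess. The software's normalized signal gave 35 falls and a median of 0.032. Rises, falls and median were 127, 11 and 0.88 in the authors' deposited table, 115, 10 and 0.81 with hybridization controls, 150, 3 and 1.17 with in vitro transcription controls, and 114, 6 and 0.87 unscaled, which was tried after seeing the data. Filters changed the probes tested: above background on all 12 arrays gave 82 member calls, 12 of them rises, 1913 calls over all probes and a median of -0.91, 3 of 6 arrays in each group 25 rises and a median of -0.54, 3 of 12 arrays a median of -0.079, and a score of 5 a median of -0.45. Other counts stayed within 1.5 times.

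Of single members, AK012728 and AK047922 turned to -0.020 and -0.14 with median centring. AK008521 turned to 0.34 in the deposited table, 0.28 with hybridization controls, 0.64 with in vitro transcription controls and 0.35 unscaled, and AK078885 to 0.31, 0.30, 0.66 and 0.37 in the same order. AK041270 stood at 0.0045 with in vitro transcription controls. AK012016, near 0, turned to -0.091 without knockout replicate 1 and to -0.04, -0.05 and -0.003 without wild-type replicates 1, 3 and 5, with a highest value of 0.0997 without wild-type replicate 2. The cause of the brightness difference was not tested. Among members that missed the threshold, AK078885 passed without wild-type replicate 2 and among probes above background on all 12 arrays, and AK012728 without knockout replicate 2. AK012728, AK047922, AK051605 and AK012016 passed as higher with both kinds of control spots, in the deposited table and unscaled, and AK047922 also with cyclic loess. No paired analysis was possible because the labels give no shared replicate numbers. Bounds were computed only for named members whose wild-type signals all failed to clear background, such as AK018456. Some values of AK013486, AK041270, AK044401 and AK019730 also lie near the noise floor, yet their fold changes carry no bound.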
